A study of Homo sapiens with 12 samples.

Results

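Mitochondrial ribosomal protein genes encode the proteins of the ribosome inside mitochondria. They were taken here as all genes whose symbol on the array starts with MRPL or MRPS followed by a digit, without pseudogenes. The rule found 77 genes with a probe among 18665, and 76 of them were tested among 9484 genes with a detected signal. The probe of MRPS14, a small-subunit protein with a bacterial counterpart, was not detected on any of the 12 arrays, so MRPS14 has no value. Every one of the other 76 genes was detected on all 12 arrays, so none of them passed the detection filter through a single group.

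RNA came from SW48, an established human colorectal cancer line that the labels describe as microsatellite-instable. The 4 groups of 3 arrays were untreated control cells, cells given 5'-Aza-cytidine (azacytidine, an inhibitor of DNA methyltransferases) at 1 µM for 5 days, cells given Trichostatin A (TSA, an inhibitor of histone deacetylases) at 0.5 µM for 2 days, and cells given azacytidine and then TSA, called the combined treatment. All groups were the same line in the same medium, and the labels do not say whether the 3 arrays of a group came from separate cultures, so p-values measure the spread between these arrays. The arrays lay on 2 chips of 6, with all groups on both chips but unevenly, and treatment time differs between the groups and cannot be told apart from treatment.

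The mitochondrial ribosome translates the few proteins that the mitochondrial genome encodes, all of them membrane subunits of the respiratory chain and ATP synthase. All of its proteins are encoded in the nucleus, made in the cytosol and imported, and then joined with ribosomal RNA that the mitochondrial genome supplies. Some descend from the proteins of the bacterial ribosome, and others are additions with no bacterial counterpart. Its output has to match that of the nuclear-encoded respiratory subunits, and mutations in single proteins cause inherited disorders of oxidative phosphorylation.

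Some short motifs were more frequent in the start regions of these genes than in promoters in general, although most members lacked each of them. RefSeq promoter sequences, which run from 250 bases before to 50 bases after the first listed start in GRCh38.p14, were found for 68 of the 76 tested genes and are not given here for MRPL2, MRPL10, MRPL13, MRPL15, MRPL21, MRPL23, MRPL35 and MRPS28. The letters AAGATGGCG, a core of the element bound by the transcription factor YY1, were searched on both strands and occurred in 13 of the 68 promoters (19.1%), against 1.85% of all 27305 promoters in the same table. Of the 14 matches, 12 read in the direction of the gene and 10 of these began at or after the start site. The letters CCGGAAGT, a core of the ETS element bound by GABP, occurred in 11 promoters (16.2%, against 4.43% of all), and GCGCATGCG, a core of the NRF1 element, in 3 (4.41%, against 2.10%). At least 1 of the 3 motifs was present in 24 promoters (35.3%, against 7.86% of all). Member promoters held a median of 24.5 CpG dinucleotides in 300 bases, against 14 in all promoters. The 27305 promoters include those of genes not tested here, while every tested member was detected on all arrays. Shares over the tested genes alone were not computed. A match is a match of letters and not a measured binding site, and neither binding nor DNA methylation was measured on these arrays.

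The 30-base windows that hold the YY1 letters are shown because genes with these letters in their promoter went in different directions after azacytidine. Not all matches lie near the start of the gene. The MRPL32 match begins at -223 relative to its start, on the strand of PSMA2, whose start lies 202 bases upstream of that of MRPL32. The MRPL52 matches begin at -98 and -64. Capitals mark the matched letters, which read CGCCATCTT where the match lies on the other strand. Each window is printed 5′ to 3′ on the strand of its gene, with GRCh38.p14 coordinates.
The matches in the 4 genes that were higher after azacytidine were as follows.
MRPL32 (chr7:42932143-42932172, plus strand): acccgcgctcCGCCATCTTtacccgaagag
MRPL36 (chr5:1799854-1799883, minus strand): ccccccccgcCGCCATCTTccttcctggca
MRPL42 (chr12:93467512-93467541, plus strand): ggattgaaacAAGATGGCGggttcgtggtg
MRPL50 (chr9:101398576-101398605, minus strand): gatctcatcgAAGATGGCGgcgcgatctgt
The 5 genes that were lower after azacytidine held these.
MRPL22 (chr5:154941093-154941122, plus strand): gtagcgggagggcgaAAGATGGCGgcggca
MRPL46 (chr15:88467361-88467390, minus strand): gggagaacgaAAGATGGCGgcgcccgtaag
MRPS18B (chr6:30617853-30617882, plus strand): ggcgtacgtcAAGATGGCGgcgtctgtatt
MRPS24 (chr7:43869479-43869508, minus strand): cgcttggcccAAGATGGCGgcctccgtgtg
MRPS30 (chr5:44808950-44808979, plus strand): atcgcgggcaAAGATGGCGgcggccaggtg
The 4 genes that did not pass the test after azacytidine were MRPL38, MRPL52 with a pair of matches, MRPS10 and MRPS18A.
MRPL38 (chr17:75904859-75904888, minus strand): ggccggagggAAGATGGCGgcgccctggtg
MRPL52, first match (chr14:22829779-22829808, plus strand): acgatgacccAAGATGGCGgagccgtgatt
MRPL52, second match (chr14:22829813-22829842, plus strand): acccagattcAAGATGGCGacttcctgctt
MRPS10 (chr6:42217833-42217862, minus strand): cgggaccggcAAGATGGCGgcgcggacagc
MRPS18A (chr6:43687763-43687792, minus strand): taggtttttgAAGATGGCGgccctcaaggc
The motif was present in 4 of 26 promoters of genes that were higher after azacytidine, in 5 of 21 of genes that were lower and in 4 of 21 of genes that did not pass. YY1 itself did not pass the test in any comparison (log2 change 0.11 ± 0.10 SE after azacytidine, 0.17 ± 0.10 SE after TSA and 0.14 ± 0.10 SE after the combined treatment).

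Intensities on all 12 arrays were background-corrected, quantile-normalized and taken to log2, and each gene is represented by its brightest detected probe. A change below is a difference of group means on this log2 scale with its SE from 1 limma fit over the 12 arrays (n = 3 arrays per group), and a gene is called when its p, adjusted by the Benjamini-Hochberg method over all 9484 genes, is under 0.05. An array had 11742 to 13647 detected probes, and the number of arrays limits the precision. Of the colorectal epithelium markers, EPCAM, CDH1, KRT8, KRT18, KRT19 and CDX2 were detected on all 12 arrays, while KRT20, VIL1 and LGALS4 were detected on none and CDX1 on 1. Of the 8 markers of other cell types, PTPRC, CD3E, COL3A1 and DES were detected on no array, COL1A1 and PECAM1 on 1 each and CD68 on all, and VIM was detected on the arrays with azacytidine and on no other. The VIM change was 4.80 ± 0.09 SE after azacytidine (limma, adjusted p = 5.24e-14), and CD68 rose by 0.45 ± 0.11 SE after the combined treatment (adjusted p = 0.00211). Of the 6 tested epithelium markers, 4 were lower after azacytidine (KRT19 -1.79, CDH1 -0.69, KRT8 -0.61 and KRT18 -0.44) and CDX2 was higher (1.49), with a median of -0.53, and after the combined treatment 3 were lower and 1 higher (median -0.24). The part of these shifts in the changes below was not tested.

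After azacytidine alone, the mitochondrial ribosomal protein genes split into a group that rose and a group that fell, with small changes either way. Of the 76 genes, 28 were higher (36.8%, against 32.3% of all genes) and 23 were lower (30.3%, against 31.1%), so 67.1% were called against 63.4% of all genes. The share called was thus close to that of the whole array. The median log2 change was 0.11 over the members and 0.01 over all genes, and the members ran from -1.32 to 0.93. A single member, MRPL45, changed by at least 2-fold, while 13.7% of all genes were called at that size. In a bulk RNA sample, less RNA per cell and fewer cells that express a gene cannot be told apart.

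The split between higher and lower depends on the scaling. With median scaling in place of quantile normalization, the all-gene median after azacytidine was -0.14, and 5 members were higher and 22 lower. Relative to that all-gene median, all 28 genes called higher and all 23 called lower stayed on their side, although the estimate of MRPS18C, called higher, turned below 0, and 15 members that were not called changed sign. Directions are therefore relative to the bulk of the array. Within chip 1 alone, which held 2 control arrays and 1 azacytidine array, 16 members were higher and 15 lower. Within chip 2 alone, with 1 control array and 2 azacytidine arrays, 18 were higher and 15 lower. Of the 51 called members, 50 had the same sign on both chips, and MRPL1 was the exception. With chip as a block MRPL1 no longer passed (0.35, adjusted p = 0.0721), while MRPL40, MRPS10 and MRPS18A did.

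**Figure D1:**
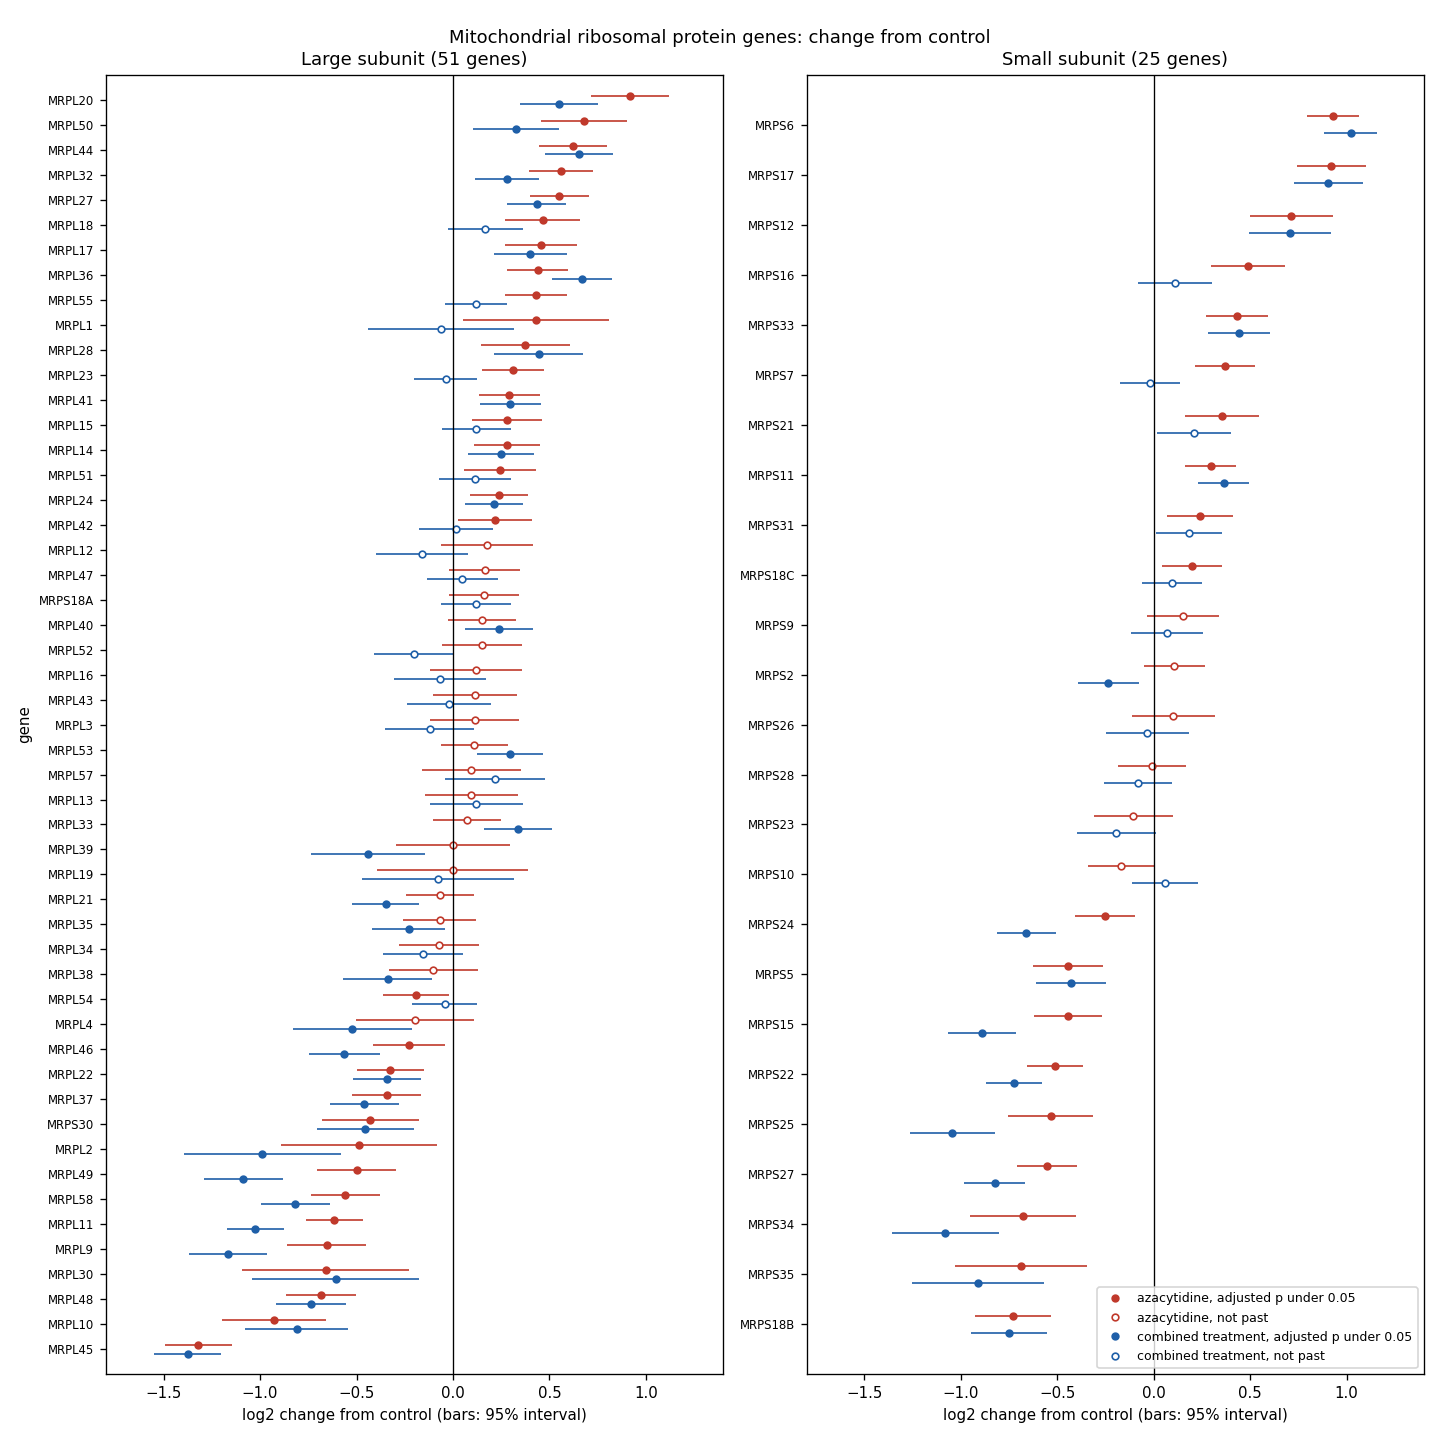
Log2 change from control of all 76 tested genes (x axis) after azacytidine (red) and after the combined treatment (blue), with 95% intervals from the limma fit, ordered by the azacytidine change within the large subunit (51 genes, with MRPS18A and MRPS30, which are large-subunit proteins despite their names) and the small subunit (25 genes). Filled points have an adjusted p under 0.05, and the azacytidine changes run from -1.32 for MRPL45 to 0.93 for MRPS6.

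Of the 4 largest increases, 3 were in small-subunit proteins with bacterial counterparts. MRPS6, whose bacterial counterpart pairs with the S18 protein on the small-subunit RNA, had log2 intensities of 13.29, 13.36 and 13.35 on the control arrays and 14.22, 14.27 and 14.29 after azacytidine. Its values were 13.40, 13.42 and 13.45 after TSA and 14.33, 14.35 and 14.36 after the combined treatment. All arrays with azacytidine lay above all arrays without it, and the 3 arrays within each group were close together. MRPS6 was 1.90-fold higher after azacytidine (log2 change 0.93 ± 0.06 SE, adjusted p = 5.02e-08).

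MRPS17, an RNA-binding protein of the small subunit, had values of 10.86, 11.01 and 10.98 in control and 11.94, 11.85 and 11.82 after azacytidine, with 11.11, 11.03 and 10.94 after TSA and 11.75, 11.85 and 11.97 after the combined treatment. The groups with and without azacytidine did not overlap, and the change was 1.89-fold (0.92 ± 0.08 SE, adjusted p = 7.17e-07). MRPS12, which sits at the decoding centre, gave 12.36, 12.55 and 12.21 in control, 13.19, 13.01 and 13.05 after azacytidine, 12.41, 12.37 and 12.17 after TSA and 13.11, 13.01 and 13.11 after the combined treatment. Again every array with azacytidine was above every array without it (1.64-fold, 0.71 ± 0.10 SE, adjusted p = 3.73e-05).

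Among large-subunit proteins, MRPL20 rose most. Its bacterial counterpart is needed early in the assembly of the large subunit. The values were 8.83, 8.92 and 9.12 in control, 9.80, 9.84 and 9.97 after azacytidine, 9.21, 8.96 and 9.05 after TSA and 9.47, 9.54 and 9.50 after the combined treatment. The combined arrays lay between the other groups without touching them, and the azacytidine change was 1.89-fold (0.92 ± 0.09 SE, adjusted p = 2.47e-06). A second, dimmer MRPL20 probe gave a smaller azacytidine change of 0.31 on the log2 scale.

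The remaining increases of the 10 largest were in MRPL50 (0.68 ± 0.10 SE), MRPL44 (0.62 ± 0.08 SE), MRPL32 (0.56 ± 0.08 SE), MRPL27 (0.55 ± 0.07 SE), MRPS16 (0.49 ± 0.09 SE) and MRPL18 (0.47 ± 0.09 SE), with adjusted p between 1.91e-05 for MRPL27 and 0.000588 for MRPL18. MRPL44 has a fold like that of RNase III and is mutated in an inherited cardiomyopathy, and MRPL50 is a large-subunit addition without a bacterial counterpart. MRPL32 matures by cleavage in the matrix, a step studied in yeast and mouse, and MRPL27 reaches to the peptidyl transferase centre in the bacterial ribosome. Mutation of MRPS16 causes a neonatal defect of the respiratory chain. In each of them the control and azacytidine arrays did not overlap. Control arrays of MRPL44, for example, read 9.14, 9.19 and 9.28, and azacytidine arrays read 9.75, 9.85 and 9.88.

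The largest decrease was in MRPL45, which lies at the exit of the large-subunit tunnel and anchors the ribosome to the inner membrane. Its values were 11.35, 11.47 and 11.48 in control, 10.13, 10.19 and 10.02 after azacytidine, 11.48, 11.44 and 11.35 after TSA and 10.16, 10.01 and 10.00 after the combined treatment. The arrays with azacytidine lay more than 1 log2 unit below the others, and the fall was 2.50-fold (-1.32 ± 0.08 SE, adjusted p = 1.67e-08). The dimmer MRPL45 probe gave -1.31 after azacytidine.

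MRPL10, the base of the flexible stalk that recruits translation factors, read 10.64, 10.66 and 10.37 in control and 9.84, 9.70 and 9.35 after azacytidine. It read 10.63, 10.59 and 10.42 after TSA and 9.84, 9.72 and 9.68 after the combined treatment. The spread was wider than for MRPL45, yet the arrays with azacytidine were all below the others (1.90-fold lower, -0.93 ± 0.12 SE, adjusted p = 2.81e-05). MRPL11, which forms the foot of the same stalk, fell by 0.61 on the log2 scale (adjusted p = 5.40e-06), from 11.38, 11.33 and 11.23 in control to 10.68, 10.72 and 10.70. MRPL12, the mobile arm of the stalk and a partner of the mitochondrial RNA polymerase, did not pass (0.18 ± 0.11 SE, adjusted p = 0.180, and -0.03 under median scaling), with control arrays at 10.14, 9.67 and 9.82 around azacytidine arrays at 10.04, 10.05 and 10.08. Without replicate 1 of control, MRPL12 was 0.31 higher (adjusted p = 0.0119). The 3 stalk genes thus gave different results, with called decreases in MRPL10 and MRPL11.

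The other decreases of the 10 largest were in MRPS18B (-0.73 ± 0.09 SE), MRPS35 (-0.69 ± 0.16 SE), MRPL48 (-0.69 ± 0.08 SE), MRPS34 (-0.68 ± 0.13 SE), MRPL30 (-0.66 ± 0.20 SE), MRPL9 (-0.66 ± 0.09 SE) and MRPL58 (-0.56 ± 0.08 SE). Their adjusted p ran from 1.29e-05 for MRPL48 to 0.0115 for MRPL30. MRPL58, also known as ICT1, is a peptidyl-tRNA hydrolase that frees stalled mitochondrial ribosomes. MRPS34 is mutated in Leigh syndrome, and MRPS35 and MRPL48 have no bacterial counterpart. MRPS35 was variable within groups, with 8.08, 8.32 and 8.67 in control and 7.53, 7.65 and 7.83 after azacytidine, and the groups still did not overlap. Without replicate 3 of azacytidine, MRPL30 no longer passed (-0.45, adjusted p = 0.0582).

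**Figure D2:**
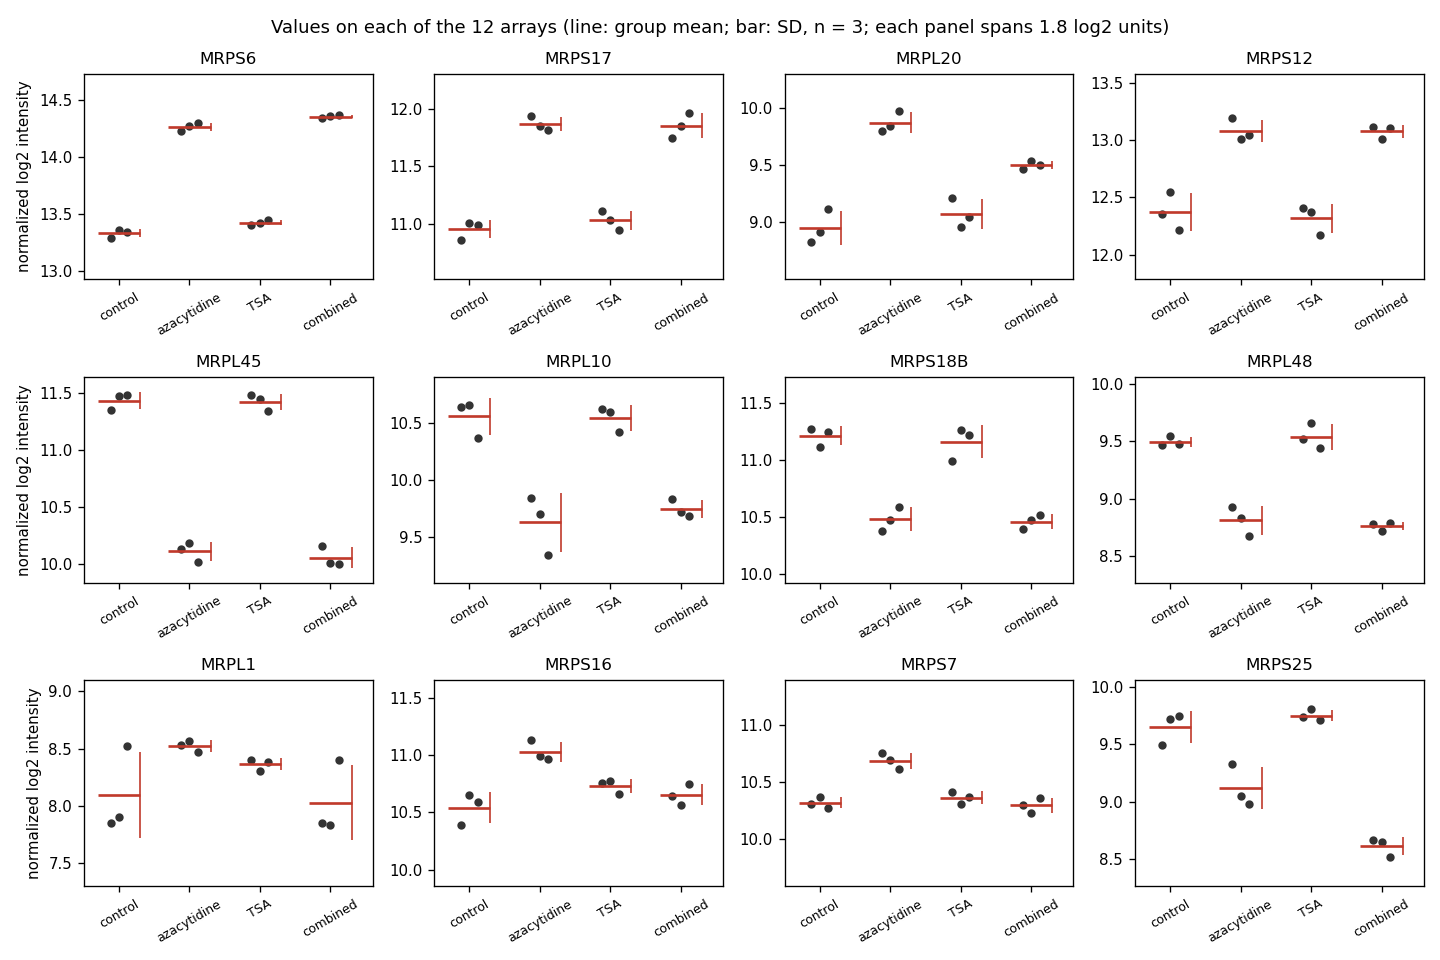
Normalized log2 intensity on each of the 12 arrays (points; replicates 1 to 3 from left to right) for 12 genes, with group means (lines) and SD (bars, n = 3). The top row rose and the middle row fell after azacytidine, while the bottom row holds genes whose azacytidine change differed when TSA followed, such as MRPS16 at 11.13, 10.99 and 10.97 after azacytidine and 10.65, 10.57 and 10.75 after the combined treatment.

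By structure, the 10 tested small-subunit proteins without a bacterial counterpart had the lowest median. MRPS18B is listed in this class although it is related to the bacterial S18 protein. After azacytidine, 2 of these were higher (MRPS33 and MRPS31) and 6 lower (MRPS18B, MRPS35, MRPS34, MRPS27, MRPS25 and MRPS22), with a median of -0.52, or -0.51 without MRPS18B, an alternative chosen after seeing the data. Of the 15 small-subunit proteins with bacterial counterparts, 8 were higher and 3 lower (median 0.20). In the large subunit, 13 of 30 with counterparts were higher and 6 lower (median 0.14), and 5 of 21 without counterparts were higher and 8 lower (median 0.10). For these classes in turn the shares were 20% and 60%, 53.3% and 20%, 43.3% and 20%, and 23.8% and 38.1%. Of all genes, 32.3% were higher and 31.1% lower. MRPS22, mutated in a fatal infantile disorder of oxidative phosphorylation, had a mean of 10.93 ± 0.06 (SD, n = 3) in control and 10.42 ± 0.05 after azacytidine, a log2 change of -0.51 ± 0.07 SE. MRPS27, a pentatricopeptide repeat protein, read 10.49, 10.38 and 10.38 in control, 9.82, 9.84 and 9.93 after azacytidine, 10.34, 10.39 and 10.45 after TSA and 9.51, 9.62 and 9.64 after the combined treatment. Its arrays with azacytidine were all below those without it, and MRPS27 fell by 0.55 and MRPS25 by 0.54 on the log2 scale after azacytidine alone (adjusted p = 2.29e-05 and 0.000493). The classes were set side by side as a description, and the difference between them was not tested.

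**Figure D3:**
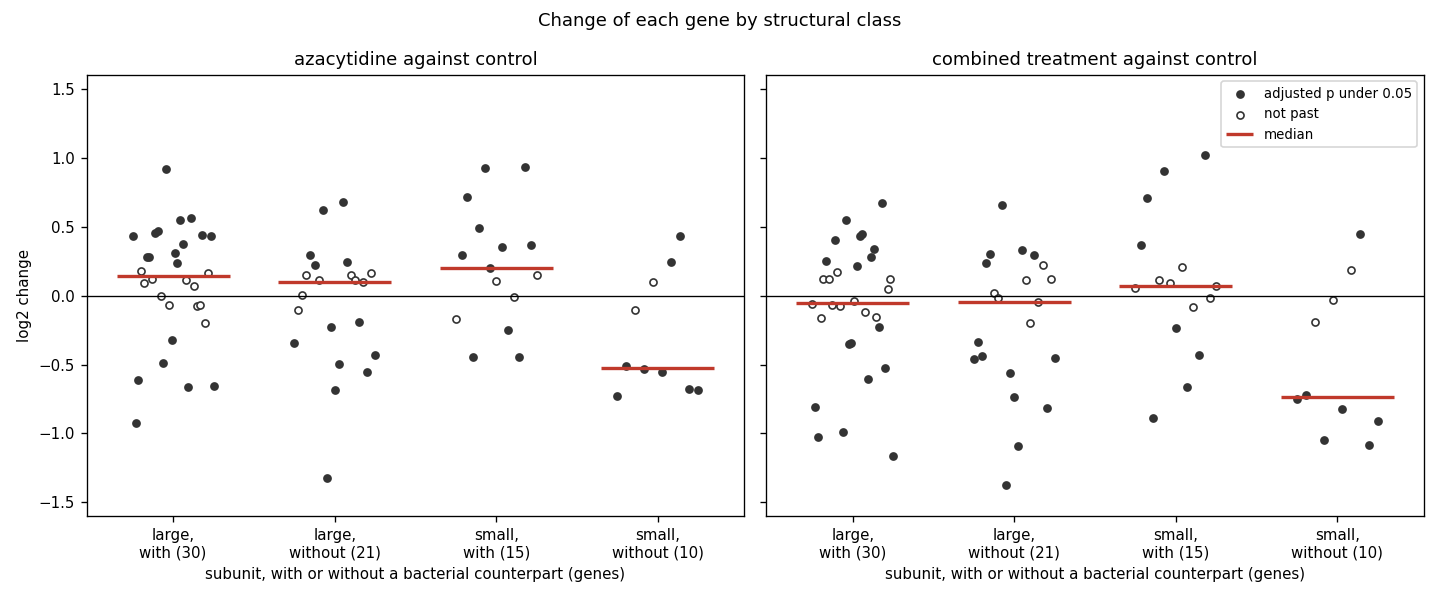
Log2 change (y axis) of each tested gene after azacytidine (left) and after the combined treatment (right), by subunit and by whether the protein has a bacterial counterpart; filled points have an adjusted p under 0.05 and red lines are medians. The 10 small-subunit genes without a counterpart have medians of -0.52 and -0.74, and the other 3 classes lie nearer 0.

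The 3 relatives of the bacterial S18 protein differed from each other. MRPS18B fell after azacytidine, from 11.27, 11.11 and 11.24 to 10.38, 10.47 and 10.59. MRPS18C rose slightly, from 10.44, 10.41 and 10.57 to 10.66, 10.70 and 10.66 (0.20 ± 0.07 SE, adjusted p = 0.0293), and this sign turned to -0.02 under median scaling. The MRPS18C call was also lost in 5 of the 12 fits that left out 1 array, with changes of 0.16 to 0.20 in those fits. MRPS18A, which sits in the large subunit despite its name, gave 0.16 ± 0.08 SE (-0.05 under median scaling) and did not pass (adjusted p = 0.107). MRPS30, the other large-subunit protein with a small-subunit name, fell by 0.43 on the log2 scale (adjusted p = 0.00615).

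Probes of 1 gene did not always give the same result. How often this holds over all genes was not computed, so the counts here describe the members only. Of the 20 members with several detected probes, MRPL55, MRPS21 and MRPL42 had probes that were called in opposite directions in the azacytidine comparison. Dimmer probes were tested in a fit over all kept probes, in which the brightest MRPL42 probe itself had an adjusted p of 0.0511. The MRPL55 probes gave 0.43, 0.40 and -0.46, and the MRPS21 probes gave 0.35 and -0.30. Both genes are counted as higher by their brightest probe, as is MRPL42, and which transcripts each probe reports was not tested. After azacytidine the probes of MRPL20 and MRPL42 also differed by over 0.5 on the log2 scale. MRPL42 (0.22 ± 0.09 SE, adjusted p = 0.0463) had a dim second probe at -0.38 (adjusted p = 0.00485 in the probe-level limma fit). After the combined treatment the probes of 7 members differed by over 0.5, which were MRPL4, MRPL24, MRPL35, MRPL42, MRPL45, MRPL55 and MRPS21, with 0 called in opposite directions, and those of MRPL24, MRPL35 and MRPL45 differed by over 0.5 when the combined treatment was set against azacytidine.

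TSA alone gave no call among the members. Over all genes 14 were called (0.148%), and 0 of the 76 members were higher and 0 lower by limma. At an unadjusted p under 0.05 there were 3 members, and the smallest adjusted p was 0.242. The TSA and control arrays did not overlap for 9 members, against 11.2% of all genes. The 95% intervals of all 76 members lay within a 2-fold change either way, and those of 73 lay within 1.5-fold. The lowest estimate was that of MRPL12, with TSA arrays at 9.42, 9.56 and 9.30 below control arrays at 10.14, 9.67 and 9.82 (-0.45 ± 0.11 SE, adjusted p = 0.242). The highest was that of MRPL1 (0.27 ± 0.17 SE, adjusted p = 0.755). Median scaling also called 0 members, at an all-gene median of 0.10.

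After the combined treatment, 19 members were higher (25% against 32.7% of all genes) and 28 lower (36.8% against 36.2%), and 61.8% were called against 68.9% of all genes. The median log2 change was -0.04 over the members and -0.04 over all genes. A change of at least 2-fold was called in 7 of the 76 members, 1 higher and 6 lower. Of all 9484 genes, 954 were higher and 727 lower at that size, together 17.7%. This comparison and the azacytidine comparison share the 3 control arrays, so their calls are not independent and their values are given side by side. The cross-counts that follow describe the members only, and those over all genes were not computed. Of the 76 members, 16 were higher and 22 lower in both, 12 were higher after azacytidine and not past the threshold after the combined treatment, and 1, MRPL54, was lower and then not past it. The 12 were MRPL1, MRPL15, MRPL18, MRPL23, MRPL42, MRPL51, MRPL55, MRPS7, MRPS16, MRPS18C, MRPS21 and MRPS31. Another 3 (MRPL33, MRPL40 and MRPL53) were higher and 6 (MRPL4, MRPL21, MRPL35, MRPL38, MRPL39 and MRPS2) lower in the combined comparison and past the threshold in that one of the pair. The 16 that passed in neither were MRPL3, MRPL12, MRPL13, MRPL16, MRPL19, MRPL34, MRPL43, MRPL47, MRPL52, MRPL57, MRPS9, MRPS10, MRPS18A, MRPS23, MRPS26 and MRPS28, and 0 genes were called in opposite directions. These placements rest on the brightest probe. In the probe-level limma fit, a dimmer probe each of MRPL42 (-0.70), MRPL55 (-0.56) and MRPS21 (-0.43) was called lower after the combined treatment. So was a dimmer probe each of MRPL3 (-0.62) and MRPL43 (-0.37), and a dimmer MRPL4 probe was called lower after azacytidine too (-0.62). Under median scaling the all-gene median was -0.32, and 2 members were then higher and 39 lower. Relative to that median all 19 genes called higher and all 28 called lower stayed on their side. The estimates of 10 of the 19 nevertheless turned below 0 under median scaling, to values between -0.21 and -0.02, and these were MRPL14, MRPL17, MRPL24, MRPL32, MRPL33, MRPL40, MRPL41, MRPL50, MRPL53 and MRPS11. Within chip 1 alone 14 members were higher and 21 lower, and within chip 2 alone 12 were higher and 23 lower, while all 47 called genes had the same sign on both chips.

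The called 2-fold changes after the combined treatment were in MRPS6, which rose 2.03-fold (1.02 ± 0.06 SE, adjusted p = 1.53e-08), and in MRPL45, MRPL9, MRPL49, MRPS34, MRPS25 and MRPL11, which fell. Dimmer probes of MRPL24 (1.52), MRPL4 (-1.09) and MRPS27 (-1.06) also passed at 2-fold in the probe-level fit. MRPL45 was 2.60-fold lower (-1.38 ± 0.08 SE, adjusted p = 8.27e-09). MRPL9, whose bacterial counterpart reaches out from the large subunit, read 8.75, 8.64 and 8.74 in control, 8.10, 8.01 and 8.05 after azacytidine, 8.69, 8.53 and 8.50 after TSA and 7.55, 7.72 and 7.35 after the combined treatment. The combined arrays were the lowest, below the azacytidine arrays, and the fall from control was 2.24-fold (-1.17 ± 0.09 SE, adjusted p = 2.16e-07). MRPL49 read 9.05, 8.97 and 8.84 in control, 8.33, 8.48 and 8.56 after azacytidine, 9.02, 8.86 and 8.85 after TSA and 7.98, 7.90 and 7.72 after the combined treatment, in the same order of groups (2.12-fold, -1.09 ± 0.09 SE, adjusted p = 4.53e-07).

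MRPS34 was 2.11-fold lower (-1.08 ± 0.13 SE), MRPS25 2.06-fold lower (-1.05 ± 0.10 SE) and MRPL11 2.04-fold lower (-1.03 ± 0.07 SE) after the combined treatment. Next came MRPL2 (-0.99 ± 0.19 SE), MRPS35 (-0.91 ± 0.16 SE) and MRPS15 (-0.89 ± 0.08 SE), and MRPL2 had the wider spread, with control arrays at 9.54, 9.17 and 8.91. The increases after MRPS6 were led by MRPS17 (0.90 ± 0.08 SE), MRPS12 (0.71 ± 0.10 SE), MRPL36 (0.67 ± 0.07 SE), MRPL44 (0.65 ± 0.08 SE) and MRPL20 (0.55 ± 0.09 SE). MRPL36, whose bacterial counterpart is among the smallest ribosomal proteins, read 10.88, 10.96 and 10.91 in control, 11.31, 11.32 and 11.44 after azacytidine, 10.97, 11.07 and 11.05 after TSA and 11.50, 11.63 and 11.62 after the combined treatment. Its combined arrays were above all others. MRPL28, MRPS33, MRPL27 and MRPL17 rose by 0.44, 0.44, 0.44 and 0.40. Of the increases named here, that of MRPL17 turned to -0.02 under median scaling, as did the increase of MRPL41 (0.30 ± 0.07 SE) to -0.12.

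The combined treatment set against azacytidine alone showed what the arrays gave when TSA followed azacytidine. Here 3 members were higher (3.95% against 15.7% of all genes) and 25 lower (32.9% against 19.4%), so 36.8% were called against 35% of all genes. The median log2 difference was -0.12 over the members and -0.04 over all genes, and no member differed by 2-fold by its brightest probe. A second, dimmer probe of MRPL24 was higher by 1.24 in this comparison and by 1.52 after the combined treatment (adjusted p = 9.49e-05 and 3.10e-06 in the probe-level limma fit), while the brightest MRPL24 probe gave -0.03 and 0.21. Under median scaling the all-gene median was -0.18, with 0 members higher and 17 lower. Relative to the all-gene median the 3 higher and the 25 lower genes kept their side. Within chip 1, with 1 array of each group, 0 were higher and 1 lower, and within chip 2, with 2 arrays of each, 0 were higher and 15 lower, while all 28 called genes had the same sign on both chips.

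By the brightest probe, the 10 largest decreases were in MRPL49 (-0.59 ± 0.09 SE), MRPL9 (-0.51 ± 0.09 SE), MRPS25 (-0.51 ± 0.10 SE), MRPL1 (-0.49 ± 0.17 SE), MRPS15 (-0.44 ± 0.08 SE), MRPL39 (-0.44 ± 0.14 SE), MRPL11 (-0.41 ± 0.07 SE), MRPS24 (-0.41 ± 0.07 SE), MRPS34 (-0.40 ± 0.13 SE) and MRPS7 (-0.39 ± 0.07 SE). MRPL11 had the smallest adjusted p among them after MRPL49 (0.000534 and 0.000432). MRPL35 gave -0.16 by its brightest probe, while its dimmer probes gave -0.63 and -0.70 (adjusted p = 0.000149 and 0.00190 in the probe-level limma fit). The dimmer MRPL45 probe gave -0.57 (adjusted p = 0.0181 in that fit), against -0.06 by the brightest. The increases were in MRPL33 (0.26 ± 0.08 SE, adjusted p = 0.0236), MRPL36 (0.23 ± 0.07 SE, adjusted p = 0.0259) and MRPS10 (0.23 ± 0.08 SE, adjusted p = 0.0384). MRPL33 read 10.97, 11.15 and 11.03 after azacytidine and 11.31, 11.37 and 11.27 after the combined treatment, without overlap. These smaller differences depended on single arrays. Of the 12 fits that each left out 1 array, 8 lost the call of MRPL1, 5 that of MRPS10, 4 each those of MRPL33, MRPL36 and MRPL39 and 2 that of MRPS34, without a change of sign. The highest adjusted p among them was 0.144 for MRPL1, without replicate 2 of the combined treatment. The count of 3 higher members fell to 0 without replicate 1 of azacytidine or replicate 2 of the combined treatment, and to 1 without replicate 2 or 3 of azacytidine or replicate 3 of the combined treatment.

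Split by the azacytidine call, 9 of the 28 genes that had risen after azacytidine and 11 of the 23 that had fallen were lower when TSA followed. Of the 25 that had not passed, 5 were lower and 2 higher, and 1 of the 28 that had risen was higher. These counts share the azacytidine arrays and describe the members only. Over all genes 19.4% were lower and 15.7% higher in this comparison, and their shares by azacytidine call were not computed. MRPL32 and MRPL20 belong to the first kind, with azacytidine arrays of MRPL32 at 11.85, 11.85 and 11.87 and combined arrays at 11.51, 11.56 and 11.65, still above the control arrays at 11.16, 11.34 and 11.39. MRPL11, MRPS25 and MRPL49 belong to the second, falling again from a level that was already below control. MRPL20 is placed by its brightest probe. Its dimmer probe gave 0.06 when the combined treatment was set against azacytidine (adjusted p = 0.660 in the probe-level limma fit).

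The interaction is the effect of azacytidine in TSA-treated cells less its effect in cells without TSA. By the brightest probe it was negative in all 10 called members. That is 13.2% lower against 11.1% of all genes, and 0 higher against 11.6%, with 22.7% of all genes called in either direction. The median was -0.13 over the members and -0.04 over all genes. The called genes were MRPL1, MRPS25, MRPS16, MRPL49, MRPL20, MRPS15, MRPS7, MRPL11, MRPL32 and MRPL23, with log2 differences from -0.77 to -0.32. A dimmer MRPL24 probe was called in the positive direction (0.77, adjusted p = 0.0295 in the probe-level limma fit). Dimmer probes of MRPL35 (-0.70 and -0.80), MRPL42 (-0.54), MRPL45 (-0.82) and MRPS27 (-0.54), which are not among the called genes, passed in the negative direction in that fit. Under median scaling the all-gene median was -0.28 and 6 members were called lower, while all 10 stayed below that median. Within chip 1 there was 1 called member and within chip 2 there were 0, and all 10 had the same sign on both chips. Other settings raised the count, with chip as a block giving 20 lower and 1 higher and the average over a gene's probes giving 16 lower. Arrays of different groups on the same chip deviated together (median correlation 0.23, against -0.22 across chips), and chip was not a term of the reported fit.

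For MRPL1, whose rise after azacytidine was lost with chip as a block, and for 5 more of these genes the rise after azacytidine was smaller, or did not pass, after the combined treatment. MRPS7, whose bacterial counterpart starts the assembly of the head of the small subunit, read 10.31, 10.37 and 10.28 in control, 10.75, 10.70 and 10.61 after azacytidine, 10.42, 10.30 and 10.37 after TSA and 10.30, 10.23 and 10.36 after the combined treatment. The azacytidine arrays stood above all others, which overlapped (interaction -0.43 ± 0.10 SE, adjusted p = 0.00935). In MRPS16 the azacytidine arrays were again above all others, with 10.39, 10.65 and 10.59 in control, 11.13, 10.99 and 10.97 after azacytidine, 10.75, 10.77 and 10.66 after TSA and 10.65, 10.57 and 10.75 after the combined treatment (interaction -0.56 ± 0.13 SE, adjusted p = 0.00662). MRPL23, near the exit of the large-subunit tunnel, had an interaction of -0.32 ± 0.11 SE (adjusted p = 0.0487), MRPL20 of -0.49 ± 0.13 SE (adjusted p = 0.0192) and MRPL32 of -0.36 ± 0.11 SE (adjusted p = 0.0321). The dimmer MRPL20 probe gave an interaction of only -0.14 and did not pass (adjusted p = 0.540 in the probe-level limma fit). Leaving out 1 array at a time ended the call of MRPL23 in 11 of 12 fits, of MRPL32 in 8 and of MRPL20 in 1, without replicate 3 of azacytidine (-0.44, adjusted p = 0.0523), with the same sign throughout.

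MRPL1, part of the stalk at the tRNA exit side, has the largest estimate and the least certain one. Its control arrays were 7.85, 7.90 and 8.53, its azacytidine arrays 8.53, 8.57 and 8.47, its TSA arrays 8.40, 8.30 and 8.39 and its combined arrays 7.85, 7.83 and 8.40. Replicate 3 of control lay well above the other control arrays, and control and azacytidine arrays overlapped. The azacytidine change was 0.66 within chip 1 and -0.00 within chip 2, and the interaction was -1.17 and -0.27. The interaction call of MRPL1 was lost in 10 of the 12 fits that left out 1 array, at values of -0.80 to -0.64 in those fits.

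In MRPS25, MRPL49, MRPS15 and MRPL11 the fall was larger with TSA than without. The dimmer MRPL11 probe had an interaction of -0.30 that did not pass (adjusted p = 0.0891 in the probe-level limma fit). MRPS25 read 9.49, 9.72 and 9.75 in control, 9.33, 9.05 and 8.98 after azacytidine, 9.74, 9.81 and 9.71 after TSA and 8.66, 8.65 and 8.52 after the combined treatment. Its azacytidine arrays lay below control and its combined arrays lower still, without overlap (interaction -0.61 ± 0.14 SE, adjusted p = 0.00924). MRPS15 read 11.59, 11.71 and 11.55 in control, 11.29, 11.03 and 11.19 after azacytidine, 11.71, 11.61 and 11.60 after TSA and 10.76, 10.71 and 10.71 after the combined treatment, in the same order of groups (interaction -0.47 ± 0.11 SE, adjusted p = 0.0115).

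Cytosolic ribosomal protein genes were mostly lower after azacytidine, and nuclear genes of oxidative phosphorylation were more often higher than lower. Of 67 tested cytosolic ribosomal protein genes, 3 were higher and 39 lower after azacytidine (4.48% and 58.2%, median -0.35) and 1 higher and 43 lower after the combined treatment (1.49% and 64.2%, median -0.38). Of 66 nuclear genes for oxidative phosphorylation subunits, 27 were higher and 8 lower after azacytidine (40.9% and 12.1%, median 0.12), 18 higher and 21 lower after the combined treatment, and 1 higher and 22 lower when the combined treatment was set against azacytidine. The mitochondrial ribosomal genes had medians of 0.11, -0.04 and -0.12 in these 3 comparisons, and the oxidative phosphorylation genes had 0.12, -0.01 and -0.16. Over all genes, 32.3% were higher and 31.1% lower after azacytidine, and 32.7% and 36.2% after the combined treatment. With the combined treatment set against azacytidine, 15.7% of all genes were higher and 19.4% lower. These are counts and medians side by side, and the differences between the lists were not tested.

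**Figure D4:**
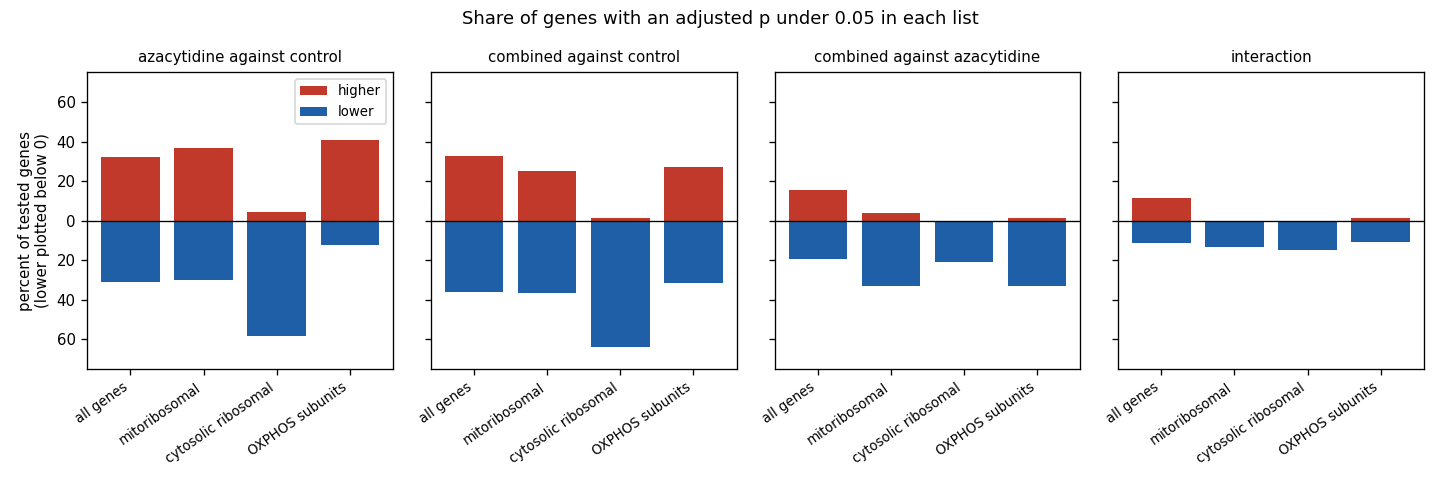
Percent of tested genes that were higher (red, above 0) or lower (blue, below 0) at an adjusted p under 0.05 in all 9484 genes, 76 mitochondrial ribosomal, 67 cytosolic ribosomal and 66 nuclear oxidative phosphorylation genes, for 4 comparisons. After azacytidine 30.3% of the mitochondrial and 58.2% of the cytosolic ribosomal genes were lower.

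Genes that supply and serve the mitochondrial ribosome were also measured. Of 12 tested genes for mitochondrial transcription and RNA processing, 8 were higher and 2 lower after azacytidine (median 0.42). These are 66.7% and 16.7%, against 32.3% and 31.1% of all genes. The largest changes were in MTERF1, named as a mitochondrial transcription termination factor (1.50 ± 0.13 SE, adjusted p = 6.04e-07), and TFB2M, an initiation factor of the mitochondrial RNA polymerase (1.19 ± 0.15 SE, adjusted p = 1.31e-05). Next came HSD17B10, a subunit of mitochondrial RNase P (0.71 ± 0.09 SE), and TFAM, which packages mitochondrial DNA and starts its transcription (0.70 ± 0.09 SE). When TSA followed, HSD17B10 and TFAM were lower than after azacytidine alone (-0.59 ± 0.09 SE and -0.43 ± 0.09 SE, adjusted p = 0.000249 and 0.00351). POLRMT, the RNA polymerase itself, did not pass after azacytidine (-0.07 ± 0.10 SE).

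Of 16 tested factors for ribosome assembly and ribosomal RNA modification, 5 were higher and 8 lower after azacytidine and 3 were higher and 10 lower after the combined treatment. The shares were 31.2% and 50% after azacytidine, against 32.3% and 31.1% of all genes. After the combined treatment they were 18.8% and 62.5%, against 32.7% and 36.2%. The GTPase MTG1 rose by 1.00 ± 0.10 SE, while the GTPases NOA1 and ERAL1 gave -0.93 ± 0.11 SE and -0.73 ± 0.20 SE, and the RNA methyltransferase MRM2 rose by 0.63 ± 0.13 SE. NSUN4, another RNA methyltransferase, had the lowest value after the combined treatment (-1.28 ± 0.09 SE, adjusted p = 8.13e-08). Of 9 tested translation factors, 3 were higher and 2 lower after azacytidine, with increases in the elongation factor TSFM (0.70 ± 0.12 SE) and the release factor MTRF1L (0.69 ± 0.09 SE) and decreases in the recycling factor MRRF (-0.57 ± 0.07 SE) and in MTRFR (-0.34 ± 0.12 SE). Of 15 tested mitochondrial aminoacyl-tRNA synthetases, 4 were higher and 4 lower, with WARS2, which fell by 1.00 ± 0.16 SE on the log2 scale, and FARS2, which rose by 0.46 ± 0.07 SE, at the ends. The shares higher and lower after azacytidine were 33.3% and 22.2% of the translation factors and 26.7% and 26.7% of the synthetases. Those of all genes were 32.3% and 31.1%.

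Some proteins of the mitochondrial ribosome carry other symbols. Of 3 such proteins tested, GADD45GIP1, a large-subunit protein, fell (-0.69 ± 0.18 SE, adjusted p = 0.00443), while DAP3 and CHCHD1 gave -0.07 ± 0.10 SE and -0.06 ± 0.10 SE. KGD4, once named MRPS36 and now counted as part of a dehydrogenase complex, gave 0.04 ± 0.14 SE. Of 5 tested regulators of mitochondrial biogenesis, MYC fell after azacytidine (-0.50 ± 0.08 SE, adjusted p = 0.000139) and further after the combined treatment (-0.82 ± 0.08 SE, adjusted p = 1.33e-06), and PPRC1 rose after azacytidine (0.31 ± 0.07 SE, adjusted p = 0.00118). ESRRA and GABPB1 changed after the combined treatment, by -0.53 ± 0.07 SE and 0.45 ± 0.11 SE.

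Start regions shared with a gene on the other strand were common. In the RefSeq table, 26 of the 68 member promoters (38.2%) had a start on the opposite strand within 1000 bases upstream, against 18.4% of all promoters. The latter again include promoters of genes not tested here. For 17 members the partner was tested too, which makes 16 pairs, since MRPS11 and MRPL46 are partners of each other. Both genes were called after azacytidine in 10 pairs, in opposite directions in 5 (31.2% of the 16) and in the same direction in 5. Over all 475 head-to-head pairs in which both genes were tested, both were called in 31.4%, in opposite directions in 11.2% and in the same direction in 20.2%. With 16 pairs this is a description, and the difference was not tested. The opposite pairs are named after their values were seen.

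MRPS12 and SARS2, the mitochondrial seryl-tRNA synthetase, start 181 bases apart, and MRPS12 rose by 0.71 while SARS2 gave -0.63 ± 0.07 SE (adjusted p = 7.26e-06). The 181 bases between their starts are shown because this pair had the widest gap between its members of those called. They are printed 5′ to 3′ in the direction of MRPS12, with the 19 CpG dinucleotides in capitals, since these are the sites at which azacytidine can lower methylation.
MRPS12 to SARS2 (GRCh38.p14, chr19:38930763-38930943, plus strand): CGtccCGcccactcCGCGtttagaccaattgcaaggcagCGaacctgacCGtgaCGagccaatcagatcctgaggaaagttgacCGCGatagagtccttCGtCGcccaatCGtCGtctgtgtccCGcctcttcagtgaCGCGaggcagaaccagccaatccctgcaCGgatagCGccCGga
MRPS11 and MRPL46, both ribosomal, start 320 bases apart. MRPS11 read 11.13, 11.11 and 11.11 in control and 11.39, 11.42 and 11.41 after azacytidine, and MRPL46 read 10.23, 10.26 and 10.44 in control and 10.01, 10.04 and 10.19 after azacytidine. The first rose by 0.29 ± 0.06 SE (adjusted p = 0.000959) and the second gave -0.23 ± 0.09 SE (adjusted p = 0.0344), without overlap in either gene. The MRPL46 call was lost in 3 of the 12 fits that left out 1 array, the highest adjusted p being 0.130 without replicate 3 of control (-0.16). Of the 320 bases, only the 250 before MRPS11 are shown, so the stretch stops short of the MRPL46 start. It holds 10 CpG dinucleotides, in capitals, most of them at the ends of the printed stretch.
MRPS11 to MRPL46 (GRCh38.p14, chr15:88467458-88467707, plus strand): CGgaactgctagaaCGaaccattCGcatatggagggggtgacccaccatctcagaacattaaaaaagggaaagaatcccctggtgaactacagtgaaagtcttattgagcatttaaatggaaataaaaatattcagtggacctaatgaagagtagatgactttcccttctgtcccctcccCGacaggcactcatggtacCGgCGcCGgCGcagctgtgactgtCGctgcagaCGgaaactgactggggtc
None of the 3 motifs searched occurs in either stretch, and the methylation of these bases was not measured here.

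The other opposite pairs were MRPL27 (0.55) with EME1 (-0.70), MRPL51 (0.25) with NCAPD2 (-0.55) and MRPS18B (-0.73) with PPP1R10 (0.47), all log2 changes after azacytidine. The MRPL51 call was lost in 4 of the 12 fits that left out 1 array (0.20 to 0.24). Pairs called in the same direction were MRPL50 with ZNF189, MRPL18 with TCP1 and MRPS18C with HELQ, which were higher, and MRPL30 with MITD1 and MRPL49 with FAU, which were lower. FAU encodes a cytosolic ribosomal protein, so MRPL49 shares its start region with a gene of the other ribosome (-0.50 and -0.30).

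**Figure D5:**
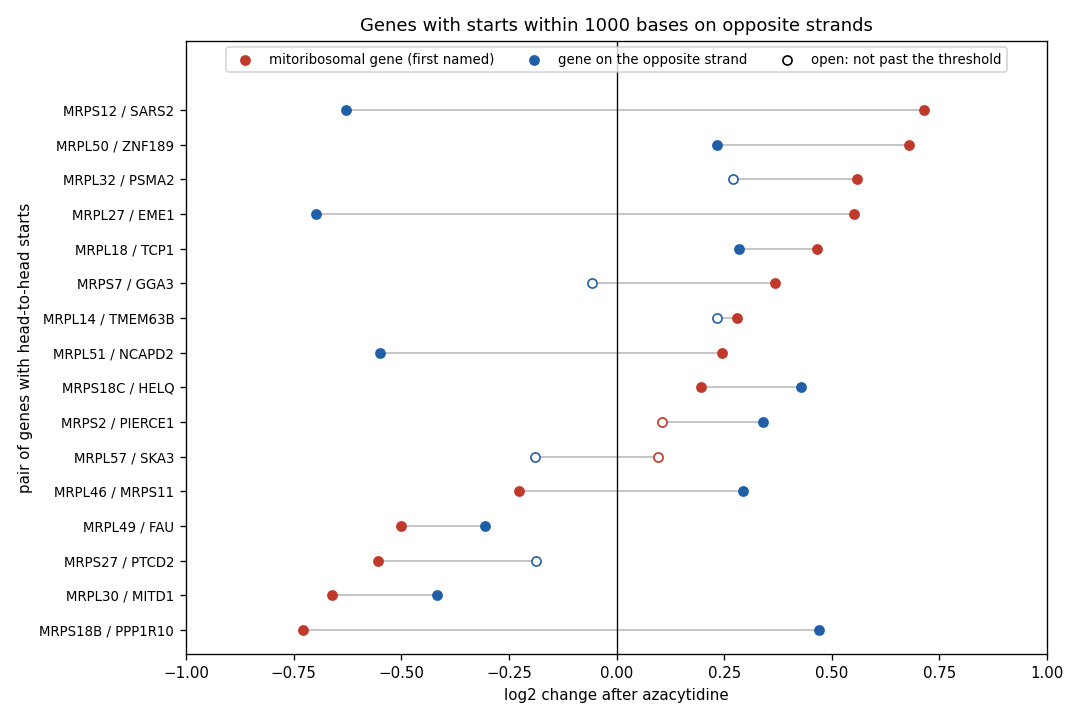
Log2 change after azacytidine (x axis) of 16 pairs of genes whose starts lie within 1000 bases on opposite strands, with the mitochondrial ribosomal gene in red and its partner in blue; in the pair MRPL46 and MRPS11 both are ribosomal. Filled points have an adjusted p under 0.05; in 5 pairs both are filled on opposite sides of 0, as for MRPS12 at 0.71 and SARS2 at -0.63.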

How the data were processed

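RNA of SW48 cells was measured on Illumina HumanWG-6 v3 arrays, 12 in all. The deposited probe intensities are linear and not normalized between arrays, and GenomeStudio made them per the submitters' processing notes. Each has a detection p-value beside it, per the file headers. The authors' processed log2 values, for which the notes name lumi 2.6.0, were deposited separately and served as an alternative. No source used here names the arrays' genome build.

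Intensities were background-corrected with limma 3.58.1 (R 4.3.3; normal-exponential model with detection p-values, offset 16), quantile-normalized and log2-transformed. The filter left 13915 of 48801 probes, those detected (p below 0.01) on 3 or more arrays. A gene was represented by its kept probe with the highest mean, which gave 9484 genes with 1 symbol. A model with 4 group means was fitted with lmFit and eBayes, with 5 contrasts tested two-sided, Benjamini-Hochberg adjustment over all genes and a threshold of 0.05. The fit was tested on simulated data. Of 110 member probes 100 were kept.

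Replicate numbers were not taken as pairs in the reported fit. Same-numbered arrays of different groups had correlations of their deviations from -0.29 to 0.43. Their median was 0.20, against -0.14 for arrays of other numbers. Arrays on the same chip had a median of 0.23, against -0.22 across chips. Number and chip partly coincide, and their parts in these correlations were not tested. The alternatives were median scaling, the authors' values, no background correction, other probe filters, chip or replicate as a block, each chip alone, the mean of a gene's probes, the compared arrays only and leaving out each array. Members and gene lists were chosen with earlier results of these data known. Named are the 10 largest called changes each way per contrast, members with disagreeing probes, 13 preset genes and up to 4 genes per pathway list. Promoter sequences are from RefSeq (GRCh38.p14).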

Additional observations from a re-analysis of the deposited data

Results flagged for a closer look

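For 10 genes the effect of azacytidine differed between cells that received TSA and cells that did not, by the interaction term of the limma fit over 12 arrays (n = 3 per group, adjusted over 9484 genes). All 10 differences were negative, that is, lower when TSA followed. They were -0.77 ± 0.25 SE for MRPL1 (adjusted p = 0.0413), -0.61 ± 0.14 SE for MRPS25 (0.00924), -0.56 ± 0.13 SE for MRPS16 (0.00662), -0.54 ± 0.13 SE for MRPL49 (0.0119), -0.49 ± 0.13 SE for MRPL20 (0.0192) and -0.47 ± 0.11 SE for MRPS15 (0.0115). The other 4 were -0.43 ± 0.10 SE for MRPS7 (0.00935), -0.42 ± 0.10 SE for MRPL11 (0.00756), -0.36 ± 0.11 SE for MRPL32 (0.0321) and -0.32 ± 0.11 SE for MRPL23 (0.0487). Among all genes 11.1% had a called negative interaction. MRPL1, MRPL23 and MRPL32 lost the call in 10, 11 and 8 of the 12 fits that left out 1 array. Dimmer probes of MRPL20 (-0.14) and MRPL11 (-0.30) did not pass (adjusted p = 0.540 and 0.0891 in the probe-level limma fit). A dimmer MRPL24 probe passed in the positive direction (0.77, adjusted p = 0.0295 in that fit).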

How the results depend on the processing

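With 3 arrays per group, groups split unevenly over 2 chips and most changes under 2-fold, the side of the threshold was set by small differences for many members. After azacytidine, the main setting gave 28 members higher and 23 lower. Median scaling gave 5 higher, chip 1 alone 16 higher and 15 lower, and chip 2 alone 18 higher and 15 lower. After the combined treatment, 19 were higher, against 2 with median scaling and 12 within chip 2 alone. For the combined treatment against azacytidine alone, 3 were higher, against 0 with median scaling, 1 with no filter on dim probes, 0 within chip 1 alone and 0 within chip 2 alone, and 0 to 3 when 1 array was left out. In the same comparison 25 were lower, against 1 within chip 1 alone and 15 within chip 2 alone. In the interaction 0 were higher, against 1 with the authors' processed values and 1 with chip as a block, and 10 were lower, against 6 with median scaling, 20 with chip as a block, 16 with all probes of a gene averaged, 1 within chip 1 alone and 0 within chip 2 alone. The chips alone hold 6 arrays each and so fewer arrays per group. Among the named members past the threshold the sign turned for 3, all with median scaling: MRPS18C after azacytidine alone (-0.0195), and MRPL17 and MRPL41 after the combined treatment (-0.0191 and -0.12). Over all 76 members, called or not, median scaling turned 16 estimates after azacytidine, 1 of them called, and 25 after the combined treatment, 10 of them called. With the replicate block, 28 members were higher and 24 lower after azacytidine, and the block moved no count of calls by over 1.5 times. TSA alone gave 0 calls among members under all alternatives run. Of the named members past the threshold, 15 of 24 after azacytidine, 16 of 25 after the combined treatment, 0 of 17 for the combined treatment against azacytidine and 0 of 10 in the interaction kept the call under every alternative run, the single chips included. The cause of these shifts was not tested.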
